A study of Gallus gallus with 4 samples.

Results

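Peptide and hormone transcripts of the chick retina were described for 8 genes that were chosen by symbol among the 30108 genes listed in the count matrices: the neuropeptide precursors PENK, TAC1, NPY, VIP and SST, and the hormone or hormone-like genes PRLL, OXT and NMS. The files list SST as SST1, which RefSeq gives as the same gene. All 8 genes were read in every library and all 8 had at least 20 UMIs (unique molecular identifiers, each standing for 1 captured transcript molecule) in each pair of whole libraries compared. The retinas were of wild-type chicks and were dissociated for droplet single-cell RNA sequencing, with 1 library for each of 4 treatments. The clodronate+NMDA library came from eyes given clodronate liposomes at P6 and NMDA at P10, and the NMDA library from eyes given saline at P6 and NMDA at P10. Eyes of the clodronate+saline library received the liposomes and then saline, those of the saline library received saline at both times, and all were collected 24 h after the last injection. NMDA is an excitotoxin that kills inner retinal neurons, and clodronate liposomes remove microglia. The number of birds behind a library is not given in the sources used here.

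Retinal neuropeptides are made mostly by sparse sets of amacrine cells, the interneurons of the inner retina, where they are cut from larger precursors, packed in dense-core vesicles and released beside GABA or glycine. In the chick retina, amacrine cells that hold enkephalin, neurotensin and somatostatin together are a known type. The hormones OXT and NMS are better known from the hypothalamus and pituitary than from the retina.

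The libraries held 8050 barcodes (clodronate+NMDA), 10897 (NMDA), 11434 (clodronate+saline) and 10905 (saline), with 20614413 to 27033560 UMIs in all and medians of 1314 to 1605 UMIs per barcode. Pairs of libraries shared 101 to 214 barcode sequences. At least 2 of the complement genes C1QA, C1QB and C1QC, which mark microglia, were detected in 0 and 0 barcodes of the clodronate+NMDA and clodronate+saline libraries, and in 28 and 23 barcodes of the NMDA and saline libraries. A filter of 200 to 2500 genes per cell with at most 5% mitochondrial UMIs kept 5717, 8414, 9221 and 9630 cells of clodronate+NMDA, NMDA, clodronate+saline and saline. The upper limit alone removed 1159, 1088, 575 and 295 deeply sequenced cells in the same order, so class values are given with and without it where that mattered. The kept cells formed 23 clusters, built without the 8 genes and the peptide lists. Cells were called amacrine-like, bipolar-like and so on from marker genes, and 5 clusters with markers of more than 1 class were left unnamed and go by their number. The doublet caller Scrublet marked 0 to 6 cells a library and so did not work here, and doublets were not removed.

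Levels are given as CPM, a gene's UMIs for every 1000000 UMIs of the library or cell class. With 1 library per treatment there was no replicate, and no difference between treatments could be tested. Intervals are 95% and cover counting error only: they are exact Poisson intervals for levels, exact binomial (Clopper-Pearson) intervals for shares of cells, and conditional binomial intervals for ratios. Differences between animals, dissociations and captures are not in them. In whole libraries, fewer cells of a type and less RNA per cell cannot be told apart.

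The 8 genes differed between treatments in both directions. In NMDA against saline, 3 of 8 (PRLL, SST, TAC1) were at least 2-fold higher and 1 of 8 (PENK) at least 2-fold lower, where 6.77% and 6.0% of 16038 genes passed the same bounds. In clodronate+NMDA against clodronate+saline, 3 of 8 (OXT, PRLL, SST) were higher and 2 of 8 (NMS, PENK) lower, with 4.55% and 6.74% of 16256 genes past the bounds. In clodronate+saline against saline, 1 of 8 (TAC1) was higher and 4 of 8 (OXT, SST, VIP, PENK) were lower, with 5.62% and 3.61% of all genes. In clodronate+NMDA against NMDA, 0 of 8 were higher and 3 of 8 (OXT, NMS, SST) were lower, with 4.88% and 5.75% of all genes. The median log2 ratio of the 8 genes was 0.37, 0.32, -0.61 and -0.24 in these 4 comparisons, and that of all genes -0.01, -0.08, 0.09 and 0.03. The 8 genes were chosen with earlier results of these libraries known, so these shares describe them and test nothing. The comparisons share libraries (saline is in both NMDA over saline and clodronate+saline over saline, for example) and are given side by side only.

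Within amacrine-like cells, where a gene needed at least 20 UMIs over the pair of libraries, 2 of 8 (PRLL, SST) were at least 2-fold higher and 2 of 8 (PENK, TAC1) lower in NMDA than in saline, against 6.34% and 4.63% of 12261 genes. In clodronate+NMDA over clodronate+saline 6 of the 8 genes reached 20 UMIs, of which 1 (PRLL) was higher and 3 (NMS, PENK, TAC1) were lower, against 5.87% and 6.60% of genes. In clodronate+saline over saline 7 of the 8 reached it, with 1 (TAC1) higher and 4 (OXT, PRLL, VIP, PENK) lower, against 3.65% and 2.22%. In clodronate+NMDA over NMDA 7 of the 8 reached it, with 0 higher and 4 (OXT, NPY, SST, VIP) lower, against 2.99% and 4.07%. Levels of OXT and NMS were below those of bipolar-like cells in every library. For OXT they were 8.47 against 8.78 CPM in NMDA and 4.47 against 5.62 in saline. SST was below bipolar-like cells in NMDA (6.21 against 11.5) and saline (1.16 against 2.25), though not in the clodronate libraries. For NMS, bipolar-like cells are not a background level, because 1 bipolar-like cluster carried it. Cone-like cells held 1, 0, 1 and 0 NMS UMIs in clodronate+NMDA, NMDA, clodronate+saline and saline, which is too few to compare. Amacrine-like cells held 3, 11, 25 and 9. The calls of OXT, NMS and SST are thus not shown to be of amacrine cells.

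**Figure D1:**
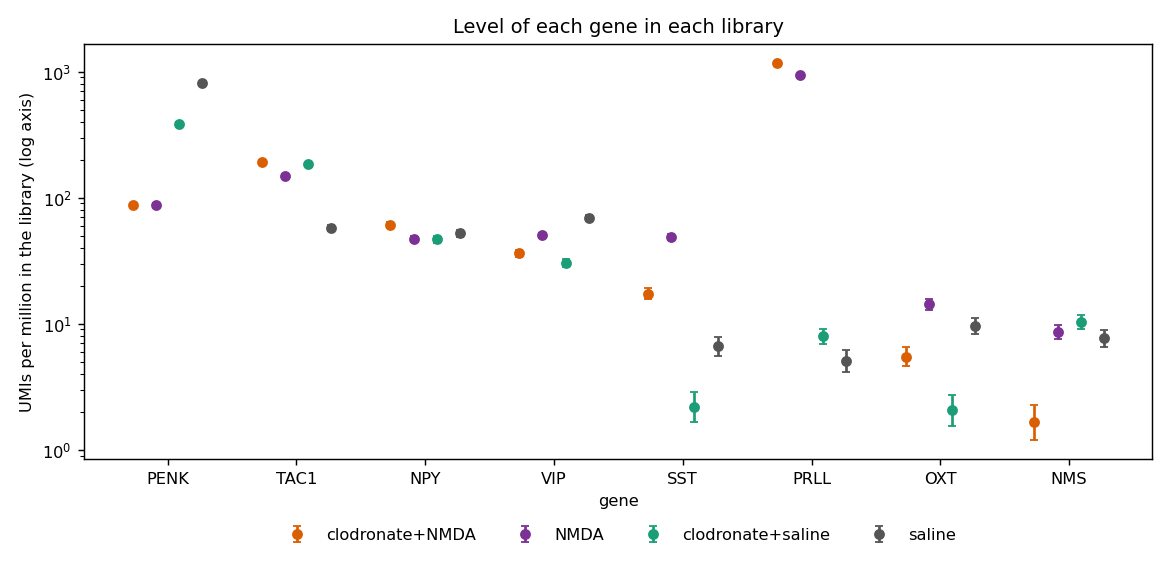
CPM of each gene (log axis) in the clodronate+NMDA, NMDA, clodronate+saline and saline libraries, with exact Poisson 95% intervals that cover counting error only. PRLL stood at 1159.7 and 943 CPM in the libraries given NMDA and at 7.96 and 5.09 CPM in those given saline last, and PENK ran the other way.

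Over cell classes, with the 4 libraries weighted equally, amacrine-like cells had the highest mean level of PENK (1093 CPM, 246 to 2919 over libraries), PRLL (1464, 3.07 to 3513), VIP (177, 69.7 to 275) and NPY (157, 96.4 to 245). Ganglion-like cells led for TAC1 (261, 41.9 to 494), horizontal-like cells for OXT (206, 71.8 to 353) and NMS (60.4, 25.1 to 106), and the unnamed cluster 21 for SST (1494, from the NMDA and saline libraries alone). The ranges of TAC1 in ganglion-like and amacrine-like cells (50.5 to 253) overlapped, as did those of NMS in horizontal-like and bipolar-like cells (2.04 to 34.6). The small unnamed cluster 22 also reached into the range of the leading class for 4 genes, from 1 positive cell each. There PRLL stood at 866 and NPY at 144 CPM in saline, and VIP and OXT at 117 in clodronate+saline. PRLL in clodronate+saline was higher in ganglion-like cells (103) than in amacrine-like cells (3.07). By mean level, amacrine-like cells thus led for 4 of the 8 genes.

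PENK encodes proenkephalin, the precursor of the enkephalin opioids, and lies on chromosome 2 (GRCg7b, 111079689 to 111083800). It had 2084 UMIs in clodronate+NMDA, 2363 in NMDA, 9733 in clodronate+saline and 16678 in saline. These were 86.7 (83.0 to 90.5), 87.4 (83.9 to 91.0), 387 (380 to 395) and 809 (797 to 821) CPM. Both libraries given NMDA were low and differed by less than counting error from each other (log2 ratio -0.01, interval -0.10 to 0.07). The level was 9.26-fold lower in NMDA than in saline, and 4.47-fold lower in clodronate+NMDA than in clodronate+saline. Without damage, clodronate+saline was 2.09-fold below saline.

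Much of this lay in 1 kind of cell. Cells with at least 5 UMIs of both PENK and NTS, the precursor of neurotensin, numbered 3 of 8050 barcodes in clodronate+NMDA, 0 of 10897 in NMDA, 47 of 11434 in clodronate+saline and 45 of 10905 in saline. As shares these were 0.0373% (0.00769% to 0.109%), 0% (a count of 0 allows up to 0.0275%), 0.411% (0.302% to 0.546%) and 0.413% (0.301% to 0.552%). Each of them also had at least 5 UMIs of SST7, a somatostatin family gene on chromosome 21. By this cut the cells were as frequent in clodronate+saline as in saline within counting error, and were nearly or wholly undetected in both libraries given NMDA. They held 69.4% of the PENK UMIs of clodronate+saline and 83.9% of those of saline. An amacrine-like cluster built without PENK and NTS had NTS, SST7 and PENK among its 10 leading genes. It held 6 kept cells in clodronate+NMDA, 11 in NMDA, 286 in clodronate+saline and 181 in saline, and so was larger in clodronate+saline than in saline.

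Their content of peptide RNA differed between the undamaged libraries. The median cell of this kind had 139 PENK, 119 NTS and 505 SST7 UMIs in clodronate+saline, against 351 PENK, 213 NTS and 994 SST7 UMIs in saline, at median depths of 4856 and 4833 UMIs per cell. In whole libraries NTS was 2.02-fold and SST7 2.08-fold lower in clodronate+saline than in saline. NTS stood at 275 UMIs in clodronate+NMDA against 5684 in clodronate+saline, and at 192 in NMDA against 9407 in saline. NTS had fewer UMIs than PENK and SST7 in every whole library, with and without NMDA.

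**Figure D2:**
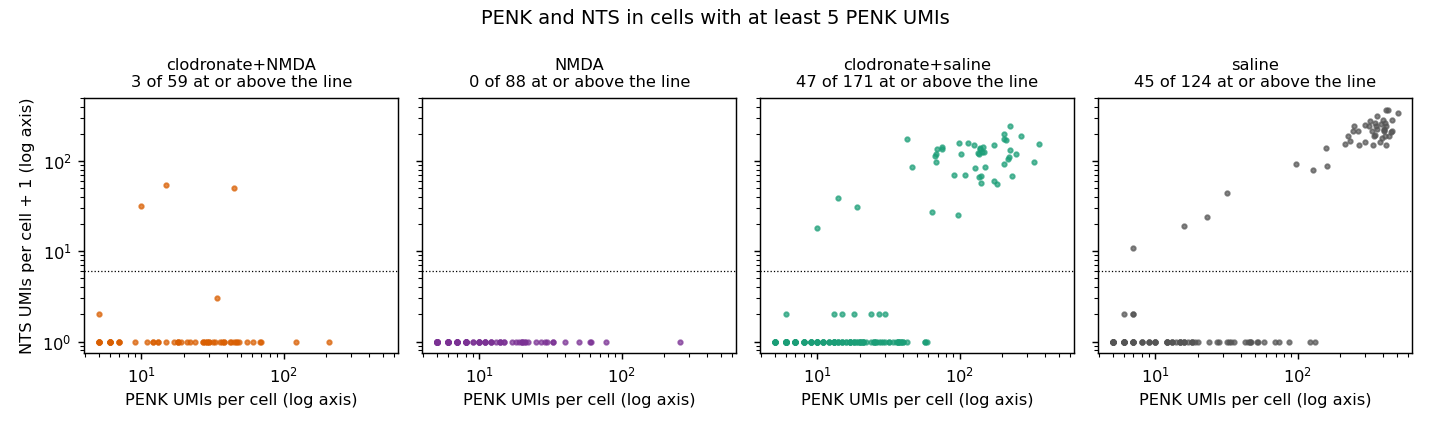
Each point is 1 cell with at least 5 PENK UMIs, placed by its PENK UMIs and its NTS UMIs plus 1 (both log axes), in 1 panel per library, and the dotted line marks 5 NTS UMIs. Cells rich in both peptides numbered 3 of 59 in clodronate+NMDA, 0 of 88 in NMDA, 47 of 171 in clodronate+saline and 45 of 124 in saline, and the other PENK-rich cells lie below the dotted line.

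PENK outside these cells differed much less. The remaining UMIs were 83.8, 87.4, 118 and 130.2 CPM in clodronate+NMDA, NMDA, clodronate+saline and saline. This rest was 1.49-fold lower in NMDA than in saline and 1.41-fold lower in clodronate+NMDA than in clodronate+saline. Cells high in PENK but not in NTS numbered 56, 88, 124 and 79 in the same order of libraries, with medians of 21.5, 8, 13 and 12 PENK UMIs. Among the cells within the filter, all 34 PENK-rich cells of clodronate+NMDA were amacrine-like, as were 29 of 41 in NMDA, 132 of 135 in clodronate+saline and 103 of 112 in saline.

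Glia and horizontal cells gave a smaller PENK signal that differed between the damaged libraries. In Müller glia-like cells PENK stood at 4.47 (clodronate+NMDA), 78.3 (NMDA), 19.0 (clodronate+saline) and 43.2 (saline) CPM of the class. Bipolar-like cells, which are not known for PENK and serve here as the level of free RNA, had 6.63, 17.6, 29.7 and 58.8. Only in the NMDA library was the glial level above that of bipolar-like cells, and it was 17.5-fold higher there than in clodronate+NMDA. That ratio is against 4.47 CPM, a value near the floor and below the 6.63 of bipolar-like cells. Within the filter, 4 of 219 Müller glia-like cells of NMDA had at least 5 PENK UMIs. With no upper limit on genes per cell, 32 of 656 Müller glia-like cells of NMDA had at least 5 PENK UMIs, against 0 of 308 in clodronate+NMDA (a count of 0 allows 0.974%), 0 of 465 in clodronate+saline and 1 of 838 in saline. In horizontal-like cells PENK stood at 33.9, 200.5, 119 and 176 CPM in clodronate+NMDA, NMDA, clodronate+saline and saline, above bipolar-like cells in each library.

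TAC1, the precursor of substance P and neurokinin A, lies on chromosome 2 (24549801 to 24555628). It had 4640 UMIs in clodronate+NMDA, 4043 in NMDA, 4640 in clodronate+saline and 1191 in saline, that is 193 (188 to 199), 149.6 (145 to 154), 185 (179 to 190.0) and 57.8 (54.5 to 61.2) CPM. The saline library was the low one with NMDA 2.59-fold and clodronate+saline 3.20-fold above it. Cells with at least 5 UMIs numbered 100, 57, 124 and 56 in the same order, so NMDA and saline had nearly equal numbers of such cells.

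The cells that carried TAC1 differed between the libraries. In clodronate+NMDA and NMDA, 88.4% and 87.0% of the TAC1 UMIs lay in cells over the limit of 2500 genes, against 45.02% in clodronate+saline and 34.3% in saline. The median cell with at least 5 TAC1 UMIs had 9461 and 10807 UMIs in all in the libraries given NMDA, against 4187 and 4179 in clodronate+saline and saline. Within the filter the whole-library ratio of NMDA over saline was reversed, at -0.63 on the log2 scale against 1.37 over all barcodes. The TAC1 UMIs that made NMDA higher than saline were thus in deeply sequenced cells, and the part that droplets with more than 1 cell had in this was not tested.

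By class, TAC1 lay in ganglion-like cells, the output neurons of the retina, and in amacrine-like cells. With no upper limit on genes, ganglion-like cells had 462 CPM in clodronate+NMDA, 773 in NMDA, 494 in clodronate+saline and 188 in saline, with 74 of 923, 43 of 439, 34 of 398 and 18 of 338 cells at 5 UMIs or more. Within the limit the class of that name had 41.9, 494, 431 and 77.1, from only 26, 86, 209 and 54 UMIs. Without the limit the cells were clustered anew, and the class went from 147 to 923 cells in clodronate+NMDA and from 76 to 439 in NMDA. It then also held cells with at least 5 UMIs of peptides highest in amacrine-like cells. These were 39 for PRLL and 17 for PENK in clodronate+NMDA, and 9 and 14 in NMDA. PENK-rich cells of the class numbered 21 in clodronate+saline and 9 in saline, so such cells were not particular to the libraries given NMDA. The class without the limit may thus not be of ganglion cells alone. In amacrine-like cells the order was another one: 97.3 in clodronate+NMDA, 50.5 in NMDA, 253 in clodronate+saline and 119 in saline. There TAC1 was 2.60-fold lower in clodronate+NMDA than in clodronate+saline and 2.35-fold lower in NMDA than in saline, and it was 3.25-fold and 2.50-fold lower with no upper limit. It was 2.13-fold higher in clodronate+saline than in saline. By these class assignments TAC1 in amacrine-like cells was lower after NMDA with and without clodronate. Ganglion-like cells without the limit were 4.12-fold higher in NMDA than in saline. Without the limit, 74 of 99 TAC1-rich cells of clodronate+NMDA and 43 of 54 of NMDA were placed in the ganglion-like class. In clodronate+saline and saline these were 34 of 120 and 18 of 54. The part that this placement of cells had in the lower amacrine-like level was not tested. Ganglion-like cells of clodronate+NMDA were not higher than those of clodronate+saline, at 462 against 494 CPM without the limit and 41.9 against 431 within it.

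**Figure D3:**
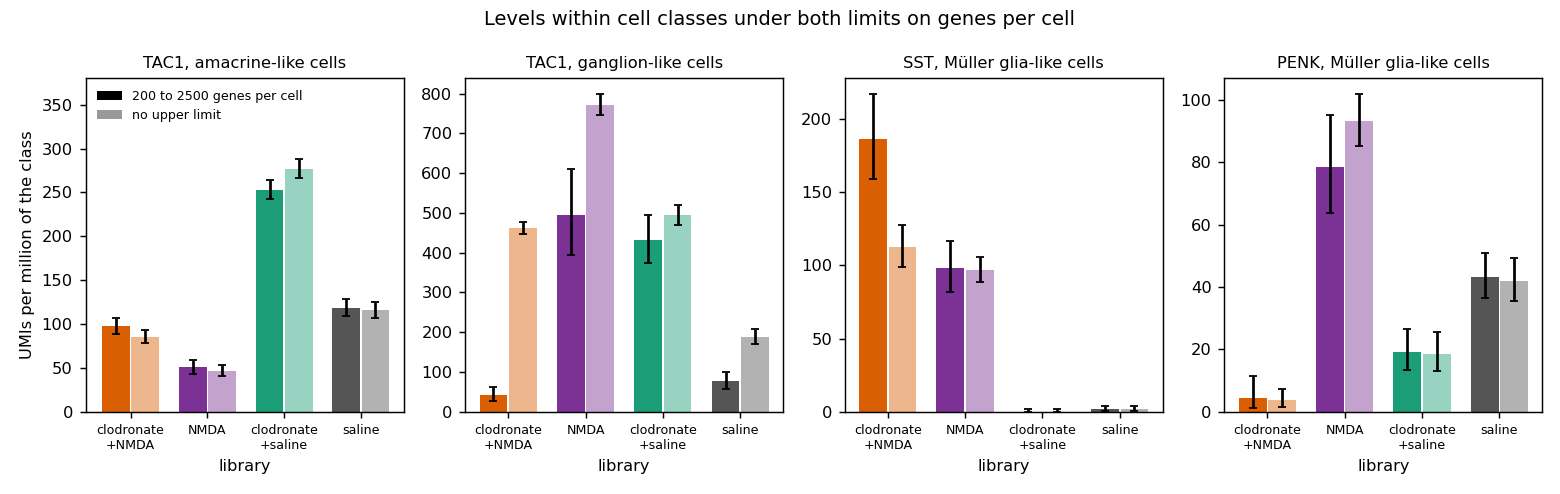
CPM of the class for TAC1 in amacrine-like and ganglion-like cells and for SST and PENK in Müller glia-like cells, in the 4 libraries, with 200 to 2500 genes per cell (solid bars) and with no upper limit (pale bars). Lines are exact Poisson 95% intervals for counting error. TAC1 in ganglion-like cells of clodronate+NMDA stood at 41.9 within the limit and at 462 without it.

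NPY, a peptide that inhibits transmitter release, lies on chromosome 2 (31367135 to 31375186). It had 1468 UMIs in clodronate+NMDA, 1273 in NMDA, 1173 in clodronate+saline and 1076 in saline, or 61.1, 47.1, 46.7 and 52.2 CPM. These levels lay within 1.31-fold of each other and NPY passed 2-fold in none of the 4 comparisons. Its cells were few and rich: 46, 44, 54 and 37 barcodes held at least 5 UMIs, and they carried 89.5%, 86.6%, 80.0% and 78.2% of the UMIs. The 10 richest barcodes alone held 44.2% to 64.7%, so a handful of cells sets each level, which the counting intervals do not cover.

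NPY was an amacrine gene in all 4 libraries, with 62 of 1493 amacrine-like cells (4.15%) positive in NMDA and 107 of 2284 (4.68%) in saline. In clodronate+NMDA and clodronate+saline 3.98% and 3.85% were positive. Bipolar-like cells were positive at 0.525%, 1.0%, 0.490% and 1.17% in clodronate+NMDA, NMDA, clodronate+saline and saline, at median depths of 1195 to 1414 UMIs against 2092 to 2872 in amacrine-like cells. Thinned to 1000 UMIs per cell, the amacrine-like shares were 2.59%, 3.301%, 2.60% and 3.99%, and the bipolar-like shares 0.258% to 0.829%. The level in amacrine-like cells of clodronate+NMDA was 96.4 CPM within the limit on genes and 226 without it, so the 2.54-fold lower value against NMDA (245) was not there without the limit (239).

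VIP, vasoactive intestinal peptide, marks another sparse set of amacrine cells and lies on chromosome 3 (49169925 to 49176636). Its UMIs numbered 871 in clodronate+NMDA, 1355 in NMDA, 763 in clodronate+saline and 1426 in saline, or 36.2, 50.1, 30.4 and 69.2 CPM. Both clodronate libraries were below their counterparts, clodronate+NMDA 1.38-fold below NMDA and clodronate+saline 2.28-fold below saline. NMDA was 1.38-fold below saline, and clodronate+NMDA 1.19-fold above clodronate+saline. The richest barcodes of NMDA held 235, 208 and 137 of its VIP UMIs, and those of clodronate+NMDA 132, 130 and 113. In clodronate+saline and saline the richest barcode held 70 and 127. A few cells thus weigh heavily on these levels, which the counting intervals do not cover.

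Between clodronate+saline and saline, VIP-rich cells differed less in number than in content. Barcodes with at least 5 UMIs numbered 20, 27, 39 and 39 in clodronate+NMDA, NMDA, clodronate+saline and saline, and their medians were 15, 18, 9 and 23 VIP UMIs. Clodronate+saline and saline thus had equal numbers of VIP-rich cells at 0.341% (0.243% to 0.466%) and 0.358% (0.254% to 0.489%) of barcodes, while the median cell was 9 against 23. At 10 UMIs or more within the filter the log2 ratio of their shares was -1.12, and after thinning to 1000 UMIs -1.53, against -0.06 at 5 UMIs. In amacrine-like cells VIP stood at 119, 275, 69.7 and 245 CPM.

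**Figure D4:**
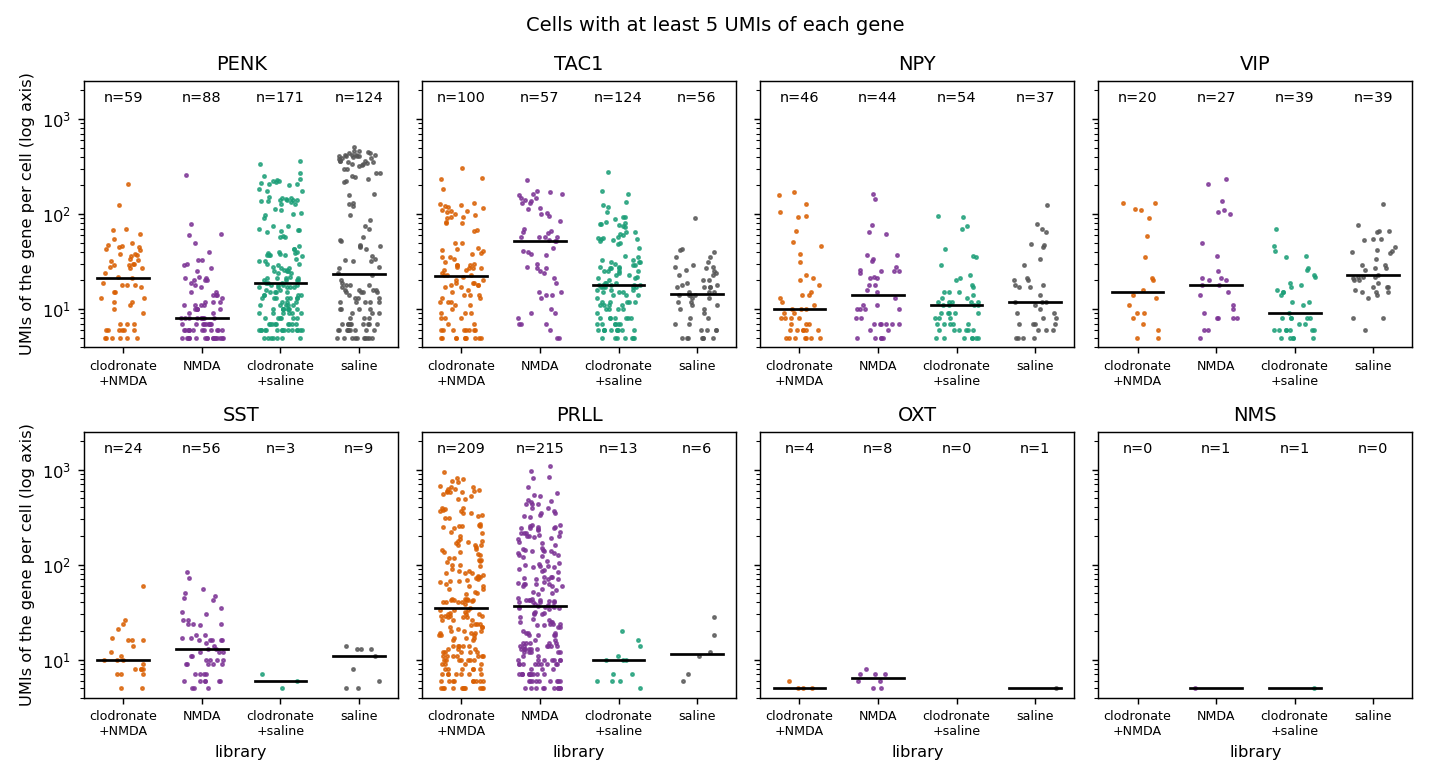
UMIs of each gene (log axis) in every barcode with at least 5 of them, by library, with the median as a black line and the number of barcodes above. PRLL-rich cells numbered 209 and 215 in clodronate+NMDA and NMDA and 13 and 6 in clodronate+saline and saline, and the PENK cells of saline reached 510 UMIs.

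SST encodes preprosomatostatin, a precursor of inhibitory peptides, and lies on chromosome 9 (14501234 to 14502767). It had 416 UMIs in clodronate+NMDA, 1308 in NMDA, 55 in clodronate+saline and 136 in saline, or 17.3 (15.7 to 19.1), 48.4 (45.8 to 51.1), 2.19 (1.65 to 2.85) and 6.60 (5.54 to 7.80) CPM. The level was 7.91-fold higher in clodronate+NMDA than in clodronate+saline and 7.33-fold higher in NMDA than in saline. Both clodronate libraries were lower than their counterparts, by 2.80-fold after NMDA and 3.01-fold without it. With the cells of the filter alone, the log2 ratio of clodronate+NMDA over clodronate+saline was 4.68, against 2.98 over all barcodes. That of clodronate+saline over saline was -2.95, against -1.59. Barcodes with at least 5 UMIs numbered 24, 56, 3 and 9.

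SST was not an amacrine gene in these libraries, with 8, 22, 6 and 6 UMIs in amacrine-like cells of clodronate+NMDA, NMDA, clodronate+saline and saline. Its highest level was in a small unnamed cluster, number 21, of 42 cells in NMDA and 28 in saline, with only 1 cell in clodronate+NMDA and 5 in clodronate+saline. There SST reached 1836 (1624 to 2068) CPM in NMDA and 1153 (902 to 1452) in saline, with 29 of 42 and 9 of 28 cells positive. The 1 and 5 cells of the clodronate libraries held 0 SST UMIs, which is too few to compare. Raised markers of this cluster were of the Müller glia list (6, among them VIM and SLC1A3) and of the oligodendrocyte list (5, among them OLIG2 and SOX10), and so it was not named. Over the 23 clusters the gene closest to SST was PDGFRA, a growth factor receptor of glial precursors, with a Pearson r of 0.986 as a description, followed by LGALS1A (0.977) and MOXD1 (0.969).

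In Müller glia-like cells SST was above the level of free RNA in the libraries given NMDA. They had 167 UMIs in 174 cells of clodronate+NMDA and 125 UMIs in 219 cells of NMDA, against 0 UMIs in 432 cells of clodronate+saline and 6 UMIs in 813 cells of saline. The levels were 186 (159 to 217), 97.9 (81.5 to 117), 0 (0 to 2.07) and 1.77 (0.651 to 3.86) CPM. Bipolar-like cells had 1.02, 11.5, 0.175 and 2.25, so the glial level was above them in both libraries given NMDA and not in the others. Without the upper limit on genes, 13 of 308 cells in clodronate+NMDA and 19 of 656 in NMDA had at least 5 SST UMIs, and 0 of 465 and 0 of 838 in clodronate+saline and saline. An unnamed cluster led by hemoglobin genes, number 11, with mixed glial and cone markers, held another 58 and 109 SST UMIs in clodronate+NMDA and NMDA.

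**Figure D5:**
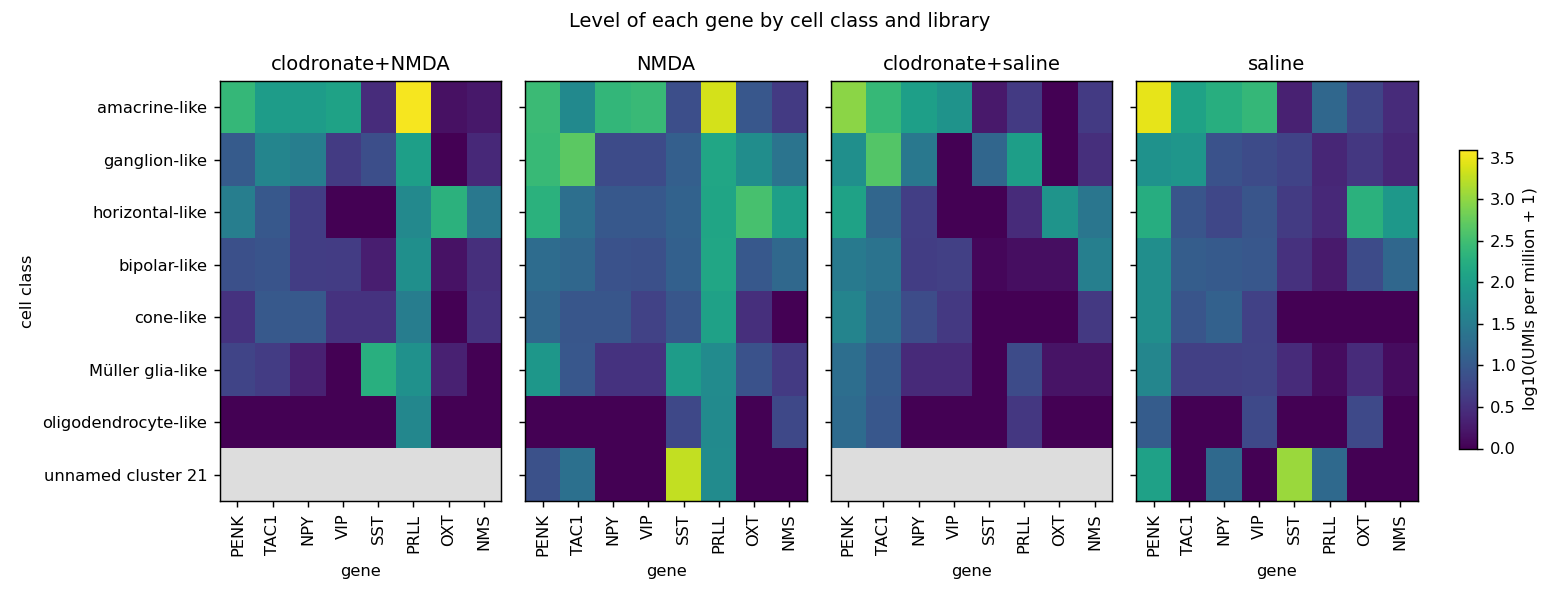
Level of the 8 genes in each cell class (rows) of the 4 libraries (panels), as log10 of CPM plus 1, for cells with 200 to 2500 genes, with grey where a class had under 10 cells in the library. SST stood at 1836 and 1153 CPM in cluster 21 of NMDA and saline, and PRLL was at 3513 and 2324 in amacrine-like cells of clodronate+NMDA and NMDA.

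PRLL, a prolactin-like hormone gene of non-mammalian vertebrates, lies on chromosome 1 (30670357 to 30674227) and gave the largest ratios of the 8 genes in both comparisons of NMDA with saline. It had 27869 UMIs in clodronate+NMDA, 25486 in NMDA, 200 in clodronate+saline and 105 in saline, or 1159.7 (1146 to 1173), 943 (931 to 954), 7.96 (6.89 to 9.14) and 5.09 (4.17 to 6.17) CPM. The level was 146-fold higher in clodronate+NMDA than in clodronate+saline, and 185-fold higher in NMDA than in saline. Clodronate+NMDA and NMDA were within 1.23-fold of each other.

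Among cells of the filter, the UMIs sat mostly in amacrine-like cells, except in clodronate+saline. There ganglion-like cells held 50 UMIs (103 CPM) and amacrine-like cells 25 (3.07 CPM). With no upper limit on genes, 10 of 13 cells with at least 5 PRLL UMIs in clodronate+saline were ganglion-like. In clodronate+NMDA 39 of 206 were ganglion-like and 161 amacrine-like. Within the filter, 99 of 1534 amacrine-like cells of clodronate+NMDA (6.45%, 5.28% to 7.80%) and 113 of 1493 of NMDA (7.57%, 6.28% to 9.03%) had at least 5 PRLL UMIs, against 1 of 3191 in clodronate+saline (0.0313%) and 5 of 2284 in saline (0.219%). The amacrine-like cluster with GAD2 and GAD1, genes of GABA synthesis, among its 10 leading genes, which was built without PRLL, stood at 4708 CPM in clodronate+NMDA and 3766 in NMDA, against 4.61 in clodronate+saline and 22.4 in saline. Single cells reached 947 and 1099 PRLL UMIs in clodronate+NMDA and NMDA, and 20 and 28 in clodronate+saline and saline. Deep cells carried 42.0% and 60.8% of the UMIs in clodronate+NMDA and NMDA. Without the upper limit on genes, amacrine-like cells stood at 4523 and 4794 CPM, so that clodronate+NMDA was 1.51-fold above NMDA with the limit and 1.06-fold below it without.

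Low counts of PRLL were also found in bipolar-like cells of the damaged retinas. Bipolar-like cells with at least 1 UMI made up 8.77% (clodronate+NMDA) and 17.2% (NMDA), against 0.0490% (clodronate+saline) and 0.0989% (saline), at median depths of 1195 to 1414 UMIs. Only 0 and 1 of these cells in clodronate+NMDA and NMDA had 5 or more. The shares of amacrine-like cells with any PRLL, 20.7%, 27.7%, 0.595% and 0.613% in clodronate+NMDA, NMDA, clodronate+saline and saline, therefore include such a background, and only cells with 5 or more UMIs are counted as PRLL cells here.

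Cells with at least 5 PRLL UMIs were set against the other amacrine-like cells of the same library, and genes were ordered by the lower of their log2 ratios in the libraries given NMDA. ADCYAP1, the precursor of the peptide PACAP, came first in that order, with log2 ratios of 3.92 in clodronate+NMDA and 2.96 in NMDA (249 and 212 UMIs). It was followed by TESC (2.75 and 3.17) and GLIS3 (3.63 and 2.63), which rested on only 10 to 21 UMIs. PRLL and NPY were both at 5 UMIs or more in 17 cells of clodronate+NMDA and 12 of NMDA, which is 37.0% and 27.3% of the NPY-rich cells but 8.13% and 5.58% of the PRLL-rich ones. All 6 PRLL-rich cells of saline were also PENK-rich, as were 14 of 209 and 8 of 215 in clodronate+NMDA and NMDA and 0 of 13 in clodronate+saline.

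OXT, the oxytocin family gene whose avian peptide is mesotocin, lies on chromosome 4 (88240333 to 88242243). It had 132 UMIs in clodronate+NMDA, 386 in NMDA, 52 in clodronate+saline and 198 in saline, or 5.49, 14.3, 2.07 and 9.60 CPM. Both clodronate libraries were lower than their counterparts, by 2.60-fold after NMDA and 4.64-fold without it. The level was higher after NMDA in both settings, 2.65-fold in clodronate+NMDA over clodronate+saline and 1.49-fold in NMDA over saline.

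OXT was a gene of horizontal-like cells, the interneurons of the outer retina. There it stood at 205 (clodronate+NMDA), 353 (NMDA), 71.8 (clodronate+saline) and 195 (saline) CPM, from 115, 199, 40 and 122 UMIs. Positive cells made up 14.4%, 20.6%, 6.01% and 13.6% of the class, at median depths of 1106 to 1274 UMIs, and after thinning to 1000 UMIs 13.3%, 18.3%, 4.01% and 12.2%. Bipolar-like cells were positive at 0.0749%, 1.23%, 0.0490% and 0.673%. Within horizontal-like cells the ratios were 2.85-fold higher in clodronate+NMDA than in clodronate+saline, 1.81-fold higher in NMDA than in saline, and 2.72-fold lower in clodronate+saline than in saline. Horizontal-like cells made up 7.56%, 5.24%, 4.51% and 5.64% of kept cells. Cells rich in OXT were rare, with 4, 8, 0 and 1 barcodes at 5 UMIs or more and a maximum of 8 UMIs. The closest named gene over clusters was ONECUT3, a transcription factor of horizontal cells (r = 0.982 over 23 clusters, a description).

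NMS, the precursor of neuromedin S, a ligand of the neuromedin U receptors, lies on chromosome 1 (133241805 to 133248205) and had the fewest UMIs of the 8 genes summed over the 4 libraries (691, against 768 for OXT). It had 40 UMIs in clodronate+NMDA, 234 in NMDA, 259 in clodronate+saline and 158 in saline, or 1.66, 8.66, 10.3 and 7.66 CPM. Clodronate+NMDA was the low library, 6.19-fold below clodronate+saline and 5.20-fold below NMDA. NMDA and saline differed by less than counting error (log2 ratio 0.18, interval -0.12 to 0.48).

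NMS lay mostly in 1 bipolar-like cluster and in horizontal-like cells. The bipolar-like cluster had CA13, EFNA5, PPP1R17, KIT and NMS itself among its 10 leading genes. NMS there stood at 24.01 CPM in clodronate+NMDA, 93.1 in NMDA, 275 in clodronate+saline and 91.9 in saline. These came from 6, 83, 159 and 75 UMIs in 159, 647, 415 and 700 cells. Here clodronate+saline was 2.99-fold above saline and NMDA and saline were within counting error (log2 ratio 0.02, interval -0.45 to 0.49). Horizontal-like cells stood at 26.8, 106, 25.1 and 83.3 in the same order, so both clodronate libraries were low there, 3.98-fold below NMDA and 3.31-fold below saline. Positive horizontal-like cells made up 3.01%, 10.2%, 2.64% and 8.10%, and cone-like cells 0.488%, 0%, 0.658% and 0%. Without NMDA, clodronate+saline was thus above saline in the bipolar-like cluster and below it in horizontal-like cells. In clodronate+NMDA the level was low in both cell types, and the bipolar-like cluster had its fewest cells there.

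Overlap was also counted for pairs among NPY, VIP, PENK and TAC1. Of NPY-rich and VIP-rich cells (at least 5 UMIs) only 2 in saline and 0 in the other 3 libraries held both. NPY-rich and TAC1-rich cells overlapped in 0, 0, 2 and 5 cells in clodronate+NMDA, NMDA, clodronate+saline and saline. PENK-rich and TAC1-rich cells overlapped in 6, 6, 9 and 2 cells, at most 10.5% of the TAC1-rich cells. TAC1 met SST7 more often, in 17 of 100, 16 of 57, 14 of 124 and 6 of 56 TAC1-rich cells. SST7-rich cells were also more numerous. With no upper limit on genes they numbered 225, 98, 197 and 168 in the same order, against 59, 87, 164 and 120 PENK-rich cells. Many TAC1-rich cells of the libraries given NMDA were deeply sequenced, and the part of doublets in these overlaps was not tested. In VIP-rich amacrine-like cells UTS2B, a urotensin family peptide gene, had log2 ratios of 4.72 to 9.80 over other amacrine-like cells in all 4 libraries, from 23 to 144 UMIs. Ordered by the lowest log2 ratio over libraries, AKAP12, a kinase anchoring protein, came first in PENK-rich cells, with 3.49 to 4.31 over the 4 libraries from 17 to 51 UMIs. TNFAIP2 had higher ratios in clodronate+saline and saline (7.13 and 5.80, from 12 and 22 UMIs) but 0 UMIs in the PENK-rich cells of both libraries given NMDA. In TAC1-rich cells CNP3 came first, which had 80 UMIs in clodronate+saline but 0 in clodronate+NMDA and saline. NPY-rich cells had ANGPT1, a vascular growth factor gene, at 2.36 to 5.79 from 3 to 15 UMIs. Over the 23 clusters NPY and VIP were alike (r = 0.930), PENK was like PPY (0.927) and NTS (0.907), PRLL like MMP9 (0.853) and CRHR1 (0.838), NMS like PPP1R17 (0.788), and TAC1 like PRKAR1B (0.855), all as descriptions over clusters that share libraries.

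The wider peptide system was read from fixed lists. Of 28 other peptide and hormone genes with at least 20 UMIs in NMDA and saline together, 12 were at least 2-fold higher and 5 lower in NMDA, with a median log2 ratio of 0.52, where 6.77% and 6.0% of all genes passed these bounds and the median of all genes was -0.01. In clodronate+NMDA against clodronate+saline, 9 of 29 were higher and 8 lower, with a median of -0.14, against 4.55% and 6.74% of all genes and a median of -0.08. Genes higher in both were ADCYAP1 (log2 1.63 with clodronate, 1.82 without), CCK, the cholecystokinin precursor (2.52 and 1.44), CARTPT, the CART peptide precursor (4.31 and 5.53), GRP and IAPP. Genes lower in both were NTS (-4.30 and -6.01), GNRH1 (-2.54 and -2.40), EDN3 (-1.74 and -3.06), AVP and GHRH. NUCB2, the nesfatin precursor, stood at -0.12 with clodronate and 0.18 without. GCG, the glucagon precursor, had log2 ratios of -0.89 in clodronate+NMDA over clodronate+saline and 1.38 in NMDA over saline. CRH, the corticotropin-releasing hormone gene, had 8 UMIs in clodronate+NMDA, 263 in NMDA, 98 in clodronate+saline and 64 in saline, or log2 ratios of -3.55 in clodronate+NMDA over clodronate+saline and 1.65 in NMDA over saline. STC1, with 0 UMIs in clodronate+NMDA and 26 in clodronate+saline, is among the 8 lower genes there. Of this list 5 of 26 were higher and 4 lower in clodronate+saline than in saline (median 0.32), against 5.62% and 3.61% of all genes (median 0.09). In clodronate+NMDA against NMDA 4 of 30 were higher and 4 lower (median 0.10), against 4.88% and 5.75% of all genes (median 0.03).

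Receptors of the 8 peptides are given next. Of 20 receptor genes tested, 1 was at least 2-fold higher and 5 lower in NMDA than in saline, and 1 higher and 4 lower in clodronate+NMDA than in clodronate+saline, with medians of -0.37 and -0.51 on the log2 scale against -0.01 and -0.08 for all genes. Of all genes 6.77% were higher and 6.0% lower in NMDA than in saline, and 4.55% higher and 6.74% lower in clodronate+NMDA than in clodronate+saline. PRLR, the prolactin receptor, had 271 UMIs in clodronate+NMDA, 204 in NMDA, 526 in clodronate+saline and 606 in saline, with a log2 ratio of -1.96 in NMDA over saline. OXTR, the oxytocin receptor, had 10, 84, 14 and 4 UMIs in the same order, and was the receptor higher in NMDA than in saline (log2 4.0, from 4 UMIs in saline). ADCYAP1R1, VIPR1 and VIPR2, the most abundant receptors, stayed within 2-fold in both comparisons of whole libraries. In amacrine-like cells VIPR2 was at least 2-fold lower in both comparisons, and ADCYAP1R1 in clodronate+NMDA against clodronate+saline. Of the 11 genes of peptide processing and dense-core vesicles that the files list, SCG2, a secretogranin, and PTPRN, a vesicle membrane protein, were higher in NMDA than in saline (log2 1.59 and 1.10) and none was lower. In clodronate+NMDA against clodronate+saline SCG2 and PTPRN stood at 0.78 and 0.92, and only CADPS2 passed 2-fold (-1.83). CPE, the carboxypeptidase that trims peptide precursors, had log2 ratios of -0.20 in both.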

How the data were processed

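Counts (whole UMIs per gene and barcode) were deposited by the authors as filtered matrices of 4 retinal libraries. Per the labels' processing notes they were made with Cell Ranger 7.0.1 and build GRCg7b, with no normalization, and introns and strand settings are not given in the sources used here. Library totals ran between 20614413 and 27033560 UMIs. Where a symbol had several rows, these were summed. The cell filter followed the study's methods (200 to 2500 genes, no more than 5% of UMIs mitochondrial), and cells were scaled to 10000 UMIs and clustered (2000 variable genes, 10 components, 20 neighbours, leidenalg 0.10.2 at resolution 0.8). Clusters took a class name from at least 3 raised markers. A further rule, added after the clusters were seen, left a cluster unnamed where none of its 10 leading genes was a marker of its class and 5 markers of another class were raised. Doublets were not removed: Scrublet (scanpy 1.11.5) marked 0 to 6 cells a library, under the 0.5% that a working caller would mark.

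Levels are CPM (UMIs for every 1000000 of a library or class). A gene was called at 2-fold with at least 20 UMIs in the 2 libraries, and cells with 5 UMIs or more counted as rich. Ratio intervals were checked on simulated counts that held counting error alone. Clumping of UMIs in a few cells was not simulated, so that check does not cover it. Scaling by TMM used edgeR 4.0.16. Named genes were the 8 genes, the 5 most abundant or 2-fold genes of each list, the 5 genes most raised in rich cells and the 3 closest over clusters. The gene choice, lists and rules were made with earlier results of these data known. Coordinates are those of RefSeq for GRCg7b. No sequence is shown.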

Additional observations from a re-analysis of the deposited data

Results flagged for a closer look

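For 3 genes the whole-library log2 ratio of a treatment had the opposite sign in the other setting. Each was 1 library against 1, and the difference was not tested. NMS had a log2 ratio of -2.63 in clodronate+NMDA over clodronate+saline and 0.18 (interval -0.12 to 0.48) in NMDA over saline, which is within counting error. It stood at -2.38 in clodronate+NMDA over NMDA and 0.43 in clodronate+saline over saline. NPY had log2 ratios of 0.39 (clodronate+NMDA over clodronate+saline) and -0.15 (NMDA over saline), and of 0.38 (clodronate+NMDA over NMDA) and -0.16 (clodronate+saline over saline). With the cells of the filter alone, 0.39 became -0.35 and 0.38 became -0.69, so these signs depended on cells outside the filter. Both are counted below as moved. VIP stood at 0.26 in clodronate+NMDA over clodronate+saline and at -0.46 in NMDA over saline.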

How the results depend on the processing

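No paired analysis was possible because each treatment had 1 library. Of 606 values recomputed under another setting, 498 kept to counting error, or for counts to 1.5 times, 105 moved beyond it and 3 reversed. The reversals were of TAC1: with the cells of the filter alone, the whole-library log2 ratio of NMDA over saline was -0.63, and with all deposited barcodes the log2 ratio of TAC1-rich cells was 0.027 for NMDA over saline and 0.20 for clodronate+NMDA over clodronate+saline. Of the 32 whole-library ratios of the 8 genes, 13 kept to counting error with the cells of the filter alone, 18 moved and 1 reversed. Counts of the 8 genes past 2-fold changed as follows. They are given without the shares over all genes at these settings, and describe the 8 genes only. For rich cells the counts under the main setting are not given, so the size of those changes is not shown. In whole libraries, 1 (PRLL) was higher in clodronate+NMDA than in NMDA with the cells of the filter. In amacrine-like cells, 3 were higher in clodronate+NMDA than in clodronate+saline and 2 lower in clodronate+NMDA than in NMDA with no upper limit on genes, and 0 were higher in clodronate+saline than in saline as a mean over cells. For rich cells, NMDA over saline had 1 higher after thinning, and 1 lower at 3 UMIs and 0 with all barcodes. Clodronate+NMDA over clodronate+saline had 2 higher with all barcodes, and 1 lower at 3 UMIs and with all barcodes. Clodronate+saline over saline had 2 higher at 3 UMIs and 0 after thinning, and 1 lower at 10 UMIs and after thinning. Clodronate+NMDA over NMDA had 2 higher at 10 UMIs and 0 after thinning. The cause was not tested. Leaving out the 5% of cells with the highest Scrublet scores, chosen after seeing the data, moved no count of genes past 2-fold by over 1.5 times, and 1 gene value by more than that: NMS in amacrine-like cells, clodronate+NMDA over clodronate+saline, at a log2 ratio of -1.13 against -2.16. Because Scrublet did not work here, its scores may not pick out doublets, and this setting cannot show what removing doublets would do.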
